A study of Mus musculus with 4 samples.

Results

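miR-9 is a microRNA of the nervous system, and its probe (mmu-miR-9) was the most counted of a panel in newborn retinal progenitors and in the youngest Müller glia. It was read by 1 probe, matched by name, out of 566 mouse miRNA probes on a nanoString nCounter panel. The panel had 0 probes for the other strand of its hairpin (miR-9*), so the other arm was not measured. The probe name was read as miR-9-5p, the arm that older names give without a suffix, and the sources used here hold no probe sequence or accession to check this. Levels were compared across 4 libraries of retinal cells sorted by flow cytometry for the red reporter tdTomato. All cells came from mice in which tamoxifen-activated Cre removes a stop cassette before tdTomato, and all mice received 75 mg/kg tamoxifen on 2 consecutive days. The P2 RPC library held postnatal day 2 retinal progenitor cells (RPCs) from 8 retinas, labelled through Sox2-CreER after tamoxifen on days 0 and 1. The Müller glia (MG) were labelled through Rlbp-CreER. P8 MG came from 52 retinas at day 8 (tamoxifen on days 6 and 7), P11 MG from 32 retinas at day 11 (days 9 and 10) and adult MG from 40 adult retinas (tamoxifen above an age of 21 days). Below, P8, P11 and adult glia stand for the 3 MG libraries. The title of the P11 library gives its age as day 11 or 12, and the series text once calls the progenitors adult although the sample labels say P2. As models, both drivers have limits: Sox2 is also active in Müller glia and some amacrine cells, and Rlbp1 also in the retinal pigment epithelium. Each group was 1 library of pooled retinas, so there is no replicate spread, no test between groups and no p-value. Cre line, age, number of retinas and assay lane differ together between P2 RPC and the glia and cannot be told apart. In pooled cells, fewer cells that hold miR-9 and less miR-9 per cell cannot be told apart either.

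A microRNA guides a silencing complex to messenger RNAs that carry a match to its seed, bases 2 to 8 from its 5′ end. In mouse neural progenitors miR-9 is known to repress regulators of progenitor maintenance such as Nr2e1 (TLX) and Hes1, and in the mouse retina it acts with let-7 and miR-125 in the timing of late progenitor competence. Together with miR-124 it has been used to turn fibroblasts into neurons. Müller glia span the retina and support its neurons, and they are the last cell type its progenitors make, and miR-9 is known as one of their abundant miRNAs.

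The sequences show what the probe can and cannot tell apart. They are from RefSeq on build GRCm38.p6. Mouse has 3 miR-9 hairpin genes, and the mature arms, in capitals below, are the same in all of them, while the loop and the flanks differ. The count of the miR-9 probe is therefore a sum over the 3 loci, whose parts were not measured here. Mir9-1 lies at chr3:88215598-88215686, Mir9-2 at chr13:83738814-83738885 and Mir9-3 at chr7:79505264-79505353, all on the plus strand. Each sits within the span of a long noncoding RNA gene of the same strand, Gm3764 for Mir9-1, C130071C03Rik for Mir9-2 and Mir9-3hg for Mir9-3.
Mir9-1: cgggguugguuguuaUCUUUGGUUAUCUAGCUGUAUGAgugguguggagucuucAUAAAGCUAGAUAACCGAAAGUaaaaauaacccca
Mir9-2: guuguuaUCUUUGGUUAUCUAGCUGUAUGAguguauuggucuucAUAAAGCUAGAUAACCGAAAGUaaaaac
Mir9-3: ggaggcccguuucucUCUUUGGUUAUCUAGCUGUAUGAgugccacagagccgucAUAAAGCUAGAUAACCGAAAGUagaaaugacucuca
The first capital stretch, of 23 bases, is miR-9-5p, the arm that the probe name is taken to mean, and the second, of 22 bases, is miR-9-3p (miR-9*).

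The seed of miR-9 set it apart from the miRNAs it is compared with below. Of 1679 mature mouse miRNA names in the RefSeq table, miR-9-5p was the only 1 with its 7-base seed. The nearest other mature sequence by edit distance, 4 changes away, was miR-9b-5p, which is annotated on the opposite strand at the Mir9-1 and Mir9-3 hairpins, and the panel had 0 probes named miR-9b. In the sequences below the capitals mark the seed. Among the miRNAs shown, let-7b and let-7c share a seed and the others have 1 each. The miRNAs were matched through their current arm names, and miR-124 is named only.
miR-9-5p: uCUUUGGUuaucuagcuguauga
miR-9-3p: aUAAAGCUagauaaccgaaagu
miR-9b-5p: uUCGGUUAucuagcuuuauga
miR-204-5p: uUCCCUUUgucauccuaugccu
miR-125b-5p: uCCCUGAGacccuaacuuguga
miR-181a-5p: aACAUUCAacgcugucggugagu
miR-25-3p: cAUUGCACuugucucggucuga
let-7b-5p: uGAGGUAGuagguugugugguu
let-7c-5p: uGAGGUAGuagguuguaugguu

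miR-9 was counted far above background in every library. The raw counts were 63981 in P2 RPC, 100674 at P8, 89452 at P11 and 65337 in adult glia. The lanes held 482118, 470304, 484305 and 695390 counts on mouse miRNA probes in the same order. The adult MG lane thus had the largest miRNA total, of which miR-204 made up 35.6%, and nearly the lowest raw count of miR-9. Its larger total does not show a deeper lane. The most abundant positive control had 31909 raw counts there, against 38438 in P2 RPC, 43128 at P8 and 40393 at P11. The mean of the 8 negative controls equalled between 0.0559% and 0.0700% of the miR-9 count, and miR-9 stood 734 to 1054 times above the detection threshold (mean plus 2 SD of the negative controls). At the other end, miR-9 lay above the range that the lane controls cover. It was 1.66 times the most abundant positive control in P2 RPC, 2.33 times at P8, 2.21 times at P11 and 2.05 times in adult glia, so whether counts stay proportional at this level was not tested.

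Counts were then scaled between lanes by the geometric mean of the positive controls and that of the 100 most abundant miRNA probes. On that scale miR-9 had 57830 counts in P2 RPC (95% counting interval 57382 to 58279), 93105 at P8 (92531 to 93682), 96934 at P11 (96300 to 97571) and 75023 in adult glia (74449 to 75600). Both young glial libraries stood highest, adult MG lay between them and P2 RPC, and P2 RPC was lowest. Scaling on the geometric mean of the housekeeping mRNAs put P2 RPC highest instead. The place of adult MG moved too. It lay above P8 MG on the summed housekeeping mRNAs, above P11 MG on the ligation controls and below P2 RPC on total miRNA counts. The counting intervals, like all others here, cover counting error only and describe these libraries, not the ages or cell types. The controls differed between lanes by more than the counting error of miR-9. The log2 ratios of the positive controls between lanes had an SD over the controls of 0.08 to 0.18. Those of the ligation controls, which pass through the same tagging step as the miRNAs, had an SD of 0.07 to 0.26. After scaling on the positive controls, the ligation controls were also lower on average in every glial lane than in P2 RPC. Their mean log2 ratio over P2 RPC was -0.43 at P8, -0.36 at P11 and -0.60 in adult glia, and the cause was not tested.

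By rank and share, miR-9 was first in the progenitors and at P8 and lost its place to miR-204 and miR-125b-5p in older glia. It ranked 1 of 566 in P2 RPC, 1 at P8, 2 at P11 and 3 in adult glia. In P2 RPC it made up 13.3% of miRNA counts (exact Clopper-Pearson 95% interval 13.2 to 13.4) and had 1.78 times the count of miR-16, a widely expressed miRNA that was second. In P8 MG its share was 21.4% (21.3 to 21.5), 1.80 times the count of miR-204, which is abundant in retinal pigment epithelium and in Müller glia. In P11 MG it held 18.5% (18.4 to 18.6). There miR-204 had 1.11 times its count, and miR-125b-5p, a miRNA of maturing neural cells, came next with miR-9 at 2.96 times its count. In adult MG its share was 9.40% (9.33 to 9.46), below that of miR-125b-5p, which had 1.45 times its count, and above that of miR-181a, against which miR-9 stood at 1.54 times.

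The share depended on what else filled the lane. miR-204 alone took 5.39% of miRNA counts in P2 RPC, 11.9% at P8, 20.5% at P11 and 35.6% in adult glia. With miR-204 left out of the total, miR-9 made up 14.0% in P2 RPC, 24.3% at P8, 23.2% at P11 and 14.6% in adult glia, and adult MG then no longer lay below P2 RPC. With miR-125b-5p left out as well, a choice made after seeing the data, the shares were 14.2%, 25.7%, 25.2% and 18.5%. P8 MG and P11 MG had the highest share in each of these forms.

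**Figure D1:**
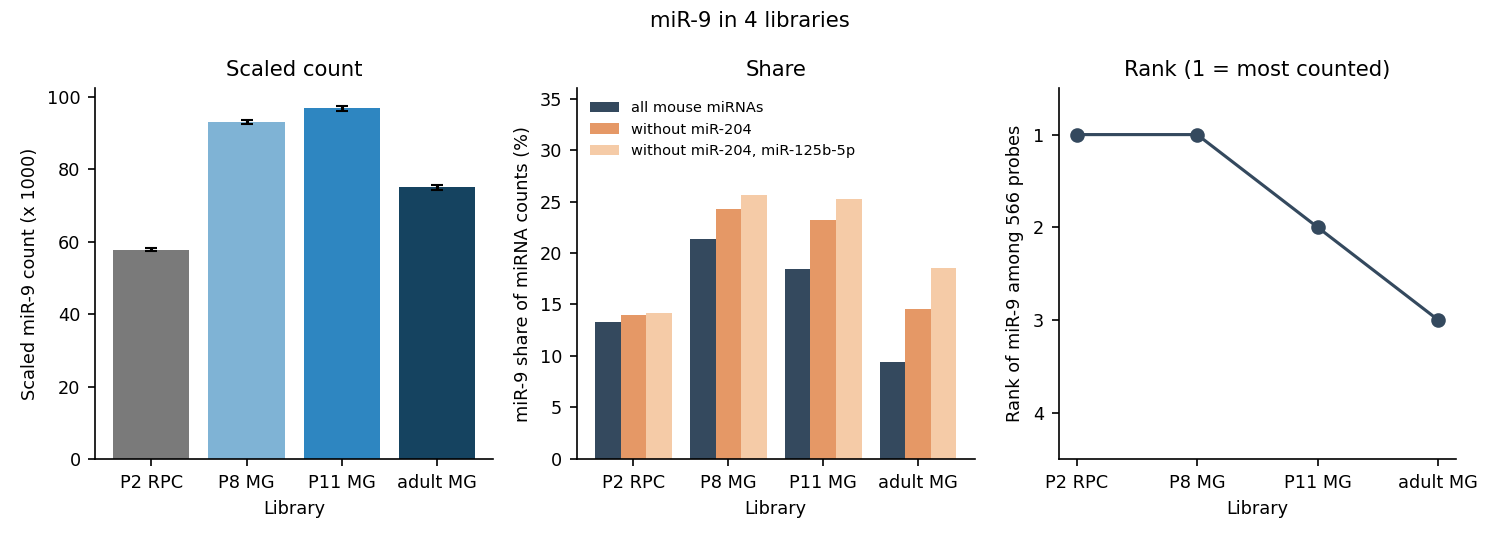
Scaled miR-9 count (left, bars from 0, error bars are 95% counting intervals), its share of mouse miRNA counts in percent (middle, over all probes and without miR-204 or without miR-204 and miR-125b-5p) and its rank (right, 1 at the top) in each library, 1 library per group. P8 MG and P11 MG were highest in share and, on this scaling, in count (P2 RPC was on the geometric mean of the housekeeping mRNAs), and the rank went 1, 1, 2 and 3 with age.

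On this scaling no pair of libraries differed in miR-9 by the 2-fold threshold used for calls, while on total miRNA counts adult MG over P8 MG did (-1.19 on the log2 scale). The call also asked for a counting interval that excludes equality and a higher count above background. miR-9 had 93105 scaled counts in P8 MG against 57830 in P2 RPC, a ratio of 1.61 (1.594 to 1.63) or 0.69 on the log2 scale. Of the 229 probes above background in either library, 21.8% were called in either direction, and the median log2 ratio over these probes was 0.39. miR-9 stood above the median, with 61.6% of the probes having a lower ratio. Counts below a lane's threshold were set to it, and the threshold was 137 raw counts in P8 MG and 60.7 in P2 RPC. Only 134 probes were above background in P8 MG, against 220 in P2 RPC, so many of these ratios are upper bounds. The median and the place of miR-9 partly reflect this floor, here and in the comparisons below. P11 MG over P2 RPC gave a like value, with a ratio of 1.68 (1.66 to 1.69), or 0.75 on the log2 scale, against a median of 0.42 over 232 probes, of which 28.0% were called.

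Between the young glial libraries miR-9 differed little. The ratio was 1.04 (1.03 to 1.05) in P11 MG over P8 MG, or 0.06 on the log2 scale. For scale, the log2 ratios of the positive controls between these lanes had an SD of 0.14 over the controls. The miR-9 ratio was above 0 under 6 of the 9 alternative scalings and below 0 under 3, so the order of P11 MG and P8 MG cannot be told. The median of the 157 probes tested was 0.0046 and 8.92% were called.

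On this scale adult MG held somewhat less miR-9 than the P8 and P11 glia, a direction that 2 of the 9 alternative scalings reversed in each comparison. The authors' deposited processed values also reversed it for adult MG over P8 MG (0.17 on the log2 scale) and gave -0.019 for adult MG over P11 MG. With the scaling used here the ratio was 0.774 (0.766 to 0.782) in adult MG over P11 MG and 0.806 (0.798 to 0.814) in adult MG over P8 MG, or -0.37 and -0.31 on the log2 scale. The medians over all probes tested were -0.17 and -0.26, of which 25.1% and 32.2% were called, and 33.0% and 47.2% of the probes had a lower ratio than miR-9. Against the progenitors, adult MG had a ratio of 1.30 (1.28 to 1.31), or 0.38, with a median of 0.22 over 242 probes and 37.2% called. On this scaling miR-9 was thus among the majority that missed the threshold in each of the 6 comparisons, which on total miRNA counts does not hold for adult MG over P8 MG.

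**Figure D2:**
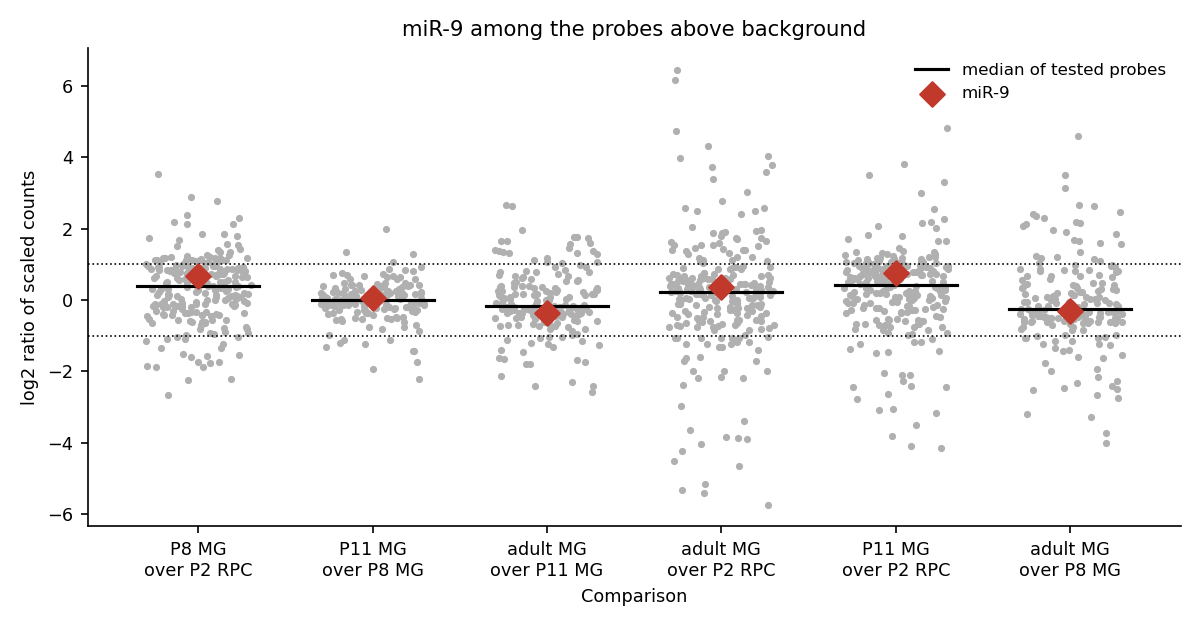
log2 ratio of scaled counts for every probe above background in either library (grey points, spread sideways at random), their median (black bar) and miR-9 (red diamond) in each of the 6 comparisons, with dotted lines at 2-fold in either direction. miR-9 lay between the dotted lines in every comparison, from -0.37 in adult MG over P11 MG to 0.75 in P11 MG over P2 RPC.

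How far the libraries differed depended on the scaling, and so did the direction. Several scalings used counts of the same miRNA probes, so tallies over scalings are not independent votes. P2 RPC had the lowest miR-9 level under 8 of 10 scalings, P8 MG under 1 (the geometric mean of the housekeeping mRNAs) and adult MG under 1 (total miRNA counts). The highest level was in P11 MG under 6, in P8 MG under 3 and in P2 RPC under 1, again the geometric mean of the housekeeping mRNAs. The log2 ratio of P8 MG over P2 RPC ran from -0.34 to 0.91 and was above 0 under 8 of the 9 alternative scalings. That of P11 MG over P2 RPC ran from -0.15 to 0.99, also above 0 under 8 of the 9. Adult MG over P2 RPC ran from -0.50 to 0.81 and was below 0 on total counts and on the geometric mean of the housekeeping mRNAs. P11 MG over P8 MG ran from -0.21 to 0.19 and adult MG over P11 MG from -0.98 to 0.12. Adult MG over P8 MG ran from -1.19 to 0.29, and its value on total counts was the only one past 2-fold. The housekeeping mRNAs did not move together between lanes. B2m, a subunit of the class I antigen complex, had 92 raw counts in P2 RPC, 543 at P8, 629 at P11 and 375 in adult glia, while Rpl19, a ribosomal protein mRNA, had 2047, 1829, 1090 and 681.

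**Figure D3:**
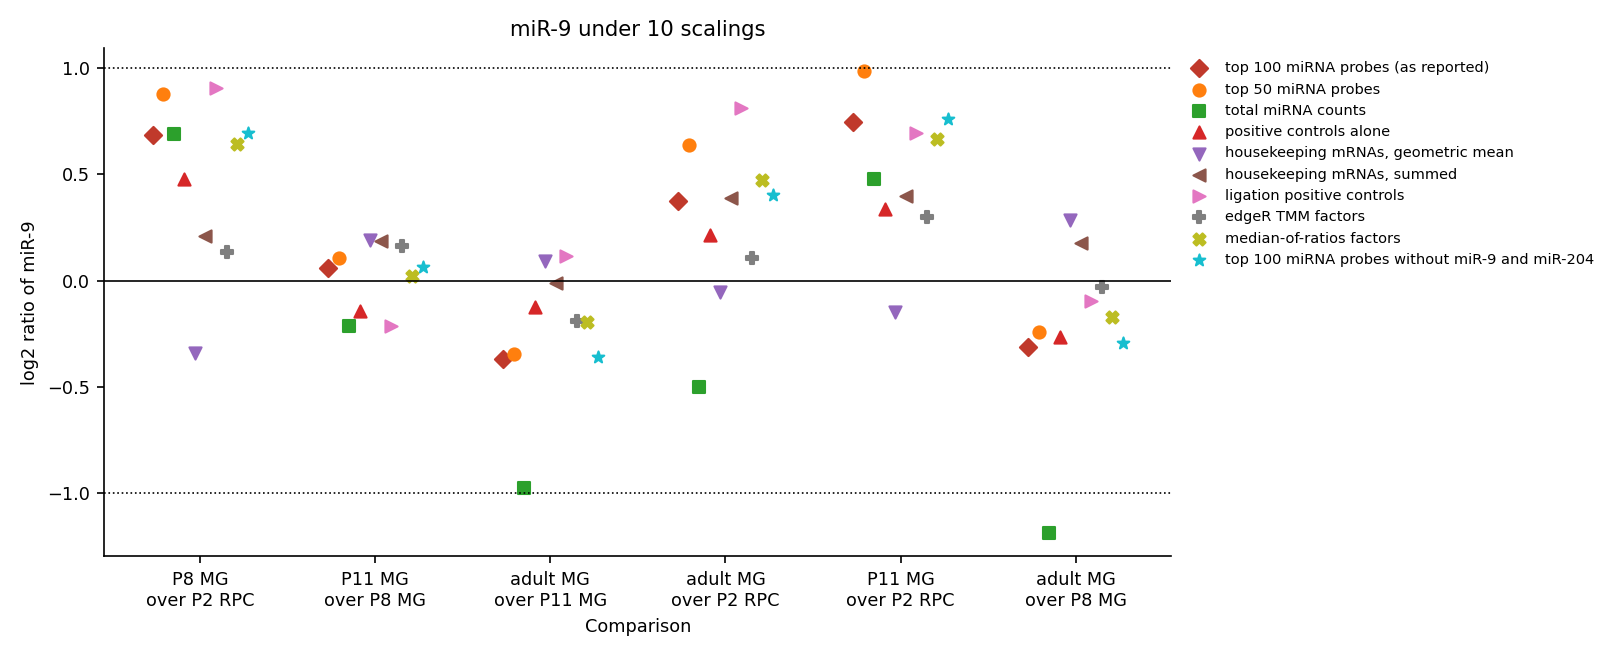
log2 ratio of miR-9 in each comparison (horizontal axis) under 10 scalings between lanes (markers), with a line at no difference and dotted lines at 2-fold. P8 MG and P11 MG over P2 RPC lay above 0 except on the geometric mean of the housekeeping mRNAs, and the comparisons among the glia fell on both sides of 0.

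Ratios within a lane need no scaling, so miR-9 was set against 7 partner miRNAs in the same lane. Probes differ in efficiency, so a ratio shows how 2 miRNAs changed relative to each other and not which is more abundant in the cells. Against miR-204 and miR-125b-5p miR-9 was lower in each later library. The miR-204 count equalled 40.6% of the miR-9 count in P2 RPC (40.0 to 41.2), 55.5% at P8, 111% at P11 and 379% in adult glia (375 to 382). The ratio of miR-204 to miR-9 was 9.33 times as high in adult MG as in P2 RPC, and most of that difference lay within the glial ages, with a factor of 6.83 for adult MG over P8 MG. miR-204 is also a miRNA of the pigment epithelium, where the Rlbp driver is active. Its paralogue miR-211, looked up after its values were seen, had 18 raw counts in P2 RPC and 70 at P8, both at background, 114 at P11 and 329 in adult glia. It was called higher in adult MG over P11 MG (1.61 on the log2 scale), as was miR-204 (1.40). Its raw count equalled 0.115% of that of miR-204 at P11 and 0.133% at the adult stage, so it rose nearly in step with miR-204. Whether the miR-211 probe gives a reading separate from miR-204 was not tested. The part of pigment epithelium in the miR-204 counts was not tested. miR-125b-5p equalled 7.11% of miR-9 in P2 RPC, 21.9% at P8, 33.8% at P11 and 145% in adult glia. Its ratio to miR-9 was thus 20.4 times as high in adult MG as in P2 RPC, the largest such factor among the 7 partners. miR-181a did not follow age order, with 39.2% in P2 RPC, 26.4% at P8, 32.7% at P11 and 64.8% in adult glia.

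Against miR-124 and miR-25 miR-9 stood higher in all 3 glial libraries than in the progenitors. Against miR-124, a miRNA of neurons with 7015 raw counts in P2 RPC, 3117 at P8, 1220 at P11 and 1211 in adult glia, miR-9 had 9.12 times the count in P2 RPC, 32.3 times at P8, 73.3 times at P11 and 54.0 times in adult glia. miR-9 relative to miR-124 was thus 3.54 times as high in P8 MG as in P2 RPC and 5.92 times as high in adult MG as in P2 RPC. miR-25, which is abundant in dividing progenitors, equalled 32.1% of miR-9 in P2 RPC, 6.96% at P8, 3.63% at P11 and 3.18% in adult glia. Its ratio to miR-9 was thus highest in the progenitors and lowest in adult MG.

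**Figure D4:**
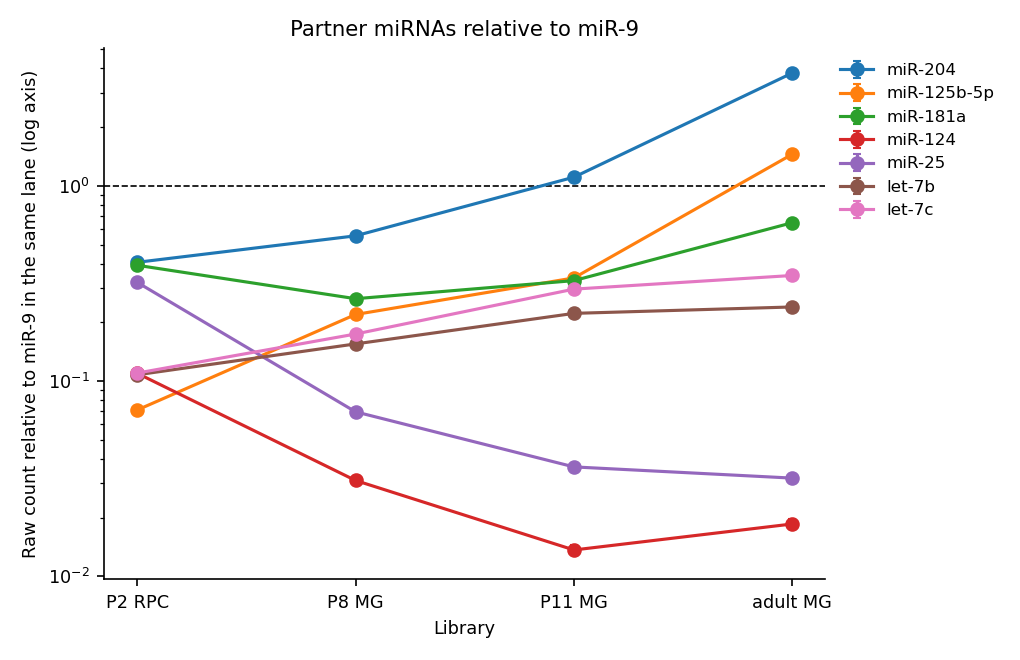
Raw count of each of 7 partner miRNAs divided by the miR-9 count of the same lane (log axis), by library, with 95% counting intervals smaller than most points and a dashed line where both counts are equal. miR-204 crossed the line in P11 MG and miR-125b-5p in adult MG, while miR-25 and miR-124 were highest relative to miR-9 in P2 RPC.

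The miRNAs that time retinal progenitors, let-7 and miR-125, did not move with miR-9 as a group. All 12 probes of this list, miR-9 included, were above background in every library. In P8 MG over P2 RPC 3 of the 12 were called higher and 0 lower, where 12.7% of all probes tested were called higher. The median log2 ratio of the list was -0.02, against 0.39 over all probes. These sets are unlike, since many of all probes tested were at background in P8 MG. Such a probe has an upper bound as its ratio and could not be called higher. The shares of all probes given for the lists below have the same kind of limit. The 3 called higher were miR-125b-5p, let-7b and let-7c. The remaining 8 partners had a lower ratio than miR-9, as did 141 of all 229 probes tested. The 3 called higher were also the only ones with a higher ratio than miR-9 in adult MG over P2 RPC, where 104 of all 242 probes tested had one. let-7c, for example, had 26071 scaled counts in adult MG and 6354 in P2 RPC, and let-7b had 17983 in adult MG and 6227 in P2 RPC. let-7i went the other way, with 2466 scaled counts in adult MG and 11148 in P2 RPC. Among the glia, 9 of the 11 partners had a higher ratio than miR-9 in P11 MG over P8 MG, all but miR-125a-5p and let-7i. Of all 157 probes tested there, 70 did. In adult MG over P11 MG 8 of 11 did, all but let-7f, let-7i and miR-98. That was near the share of all probes tested, 119 of 179. Whether a partner's ratio was above that of miR-9 does not depend on the scaling.

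miR-9 supplied less of the counts of the miRNAs known as abundant in Müller glia at each later age. This list of 8, again with miR-9, held 30.5% of miRNA counts in P2 RPC, 54.0% at P8, 63.8% at P11 and 72.5% in adult glia, and all 8 were above background in every library. miR-9 supplied 43.5% of the list's counts in P2 RPC, 39.6% at P8, 29.0% at P11 and 13.0% in adult glia. The other 7 members together already exceeded miR-9 in P2 RPC, at 130.1% of its count, and reached 672% in adult glia. Singly, 0 of the 7 exceeded miR-9 in P2 RPC or at P8, 1 did at P11 (miR-204) and 2 did in adult glia (miR-204 and miR-125b-5p). In adult MG over P2 RPC 6 of the 8 were called higher and 0 lower, where 20.7% of all probes tested were called higher. The exceptions were miR-9 and miR-125a-5p, a paralogue of miR-125b-5p, which had 5651 scaled counts in adult MG and 8895 in P2 RPC. miR-135a, the remaining member, had 12803 scaled counts in adult MG and 3491 in P2 RPC.

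The miRNAs of dividing progenitors and of photoreceptors, which the sorts could also hold, differed far more between libraries than miR-9. The 9 probes of dividing progenitor miRNAs (miR-25 with the miR-17 family clusters) summed to 109% of the miR-9 count in P2 RPC, 21.0% at P8, 8.997% at P11 and 4.82% in adult glia. Of these, 7 of 9 were called lower in P8 MG over P2 RPC, where 9.17% of all probes tested were, and 8 of 9 in adult MG over P2 RPC, where 16.5% were. The 13 neuronal probes summed to 13.0%, 4.59%, 2.59% and 3.33% of miR-9, most of it miR-124, and 8, 4, 3 and 4 of them were above background. The neuronal list did not move one way. In P8 MG over P2 RPC 2 of the 9 tested were called higher and 2 lower, where 12.7% and 9.17% of all probes tested were. Of the 9, 4 had a higher ratio than miR-9, as did 87 of all 229 probes tested. Of these 4, miR-128 and miR-7a were at background in P8 MG, so their ratios are upper bounds and their place against miR-9 cannot be told. Those called higher were miR-129-3p, with 497 raw counts in P8 MG and 151 in P2 RPC, and miR-129-5p, with 150 in P8 MG and 48, at background, in P2 RPC. Those called lower were miR-124 and miR-218. In adult MG over P11 MG all 4 tested had a higher ratio than miR-9, as did 119 of all 179 probes tested, and 0 of the 4 were called. The 3 photoreceptor miRNAs miR-183, miR-96 and miR-182 summed to 35.1% of the miR-9 count in P2 RPC, 5.99% at P8, 1.42% at P11 and 1.04% in adult glia, with miR-182 at background in P11 MG and adult MG. The 5 miRNAs of microglia and white blood cells summed to between 0.511% (P2 RPC) and 1.35% (P11 MG) of miR-9. Of them, 4 were called higher in P8 MG over P2 RPC, where 12.7% of all probes tested were. Among these, miR-142-3p, miR-146a and miR-150 were at background in P2 RPC, so their ratios are lower bounds. In adult MG over P11 MG 2 of the 4 tested were called lower, where 12.3% of all probes tested were. miR-223 was at background in every library. The 2 endothelial miRNAs summed to between 0.358% (adult MG) and 0.578% (P2 RPC) of miR-9, with miR-126-5p at background throughout, and no mural or red blood cell miRNA was above background in any library. The part of neurons, photoreceptors or microglia in the miR-9 counts was not tested. The panel has no mRNA markers of retinal cell types, so the sorted identities could be checked only against these miRNAs.

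The probes whose pattern was most like that of miR-9 were mostly dim. Likeness was the SD, over the 4 libraries, of the log2 ratio of a probe's raw count to the miR-9 count of the same lane, which no scaling can change. Among 116 other probes above background in all 4 libraries this SD had a median of 0.64, and the 8 lowest were miR-28, miR-200b, miR-185, miR-542-5p, miR-674, miR-142-5p, miR-467f and miR-1906. miR-28 came first with an SD of 0.04. Its raw counts were 270 in P2 RPC, 412 at P8, 390 at P11 and 273 in adult glia, which was between 0.409% and 0.436% of the miR-9 count in every lane. That SD is below the 0.08 that counting error alone gives for a probe of this abundance. The remaining 7 had SDs of 0.09 to 0.26 and from 84 to 355 raw counts, and 4 of them stood within 1.13 times the background threshold in at least 1 library. With 4 points that share the lane and its depth, the order within this list has little weight.

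Among well-counted miRNAs the likeness was looser. Of the 50 other probes above 3 times the background threshold in all 4 libraries, the 8 closest were miR-28, let-7d, miR-21, let-7g, let-7a, miR-191, miR-27a and miR-151-5p, and only miR-28 was also in the first list. let-7d, the closest of the abundant ones with an SD of 0.30, had 15516 raw counts in P2 RPC, 15155 at P8, 14853 at P11 and 11549 in adult glia. Its ratio to miR-9 was highest in P2 RPC, at 24.3%, and lowest in P8 MG, at 15.1%. let-7g and let-7a, which share the let-7 seed, had SDs of 0.34 and 0.36 and were likewise highest relative to miR-9 in P2 RPC and lowest in P8 MG. Apart from miR-28, none of the 50 had an SD under that of let-7d.

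**Figure D5:**
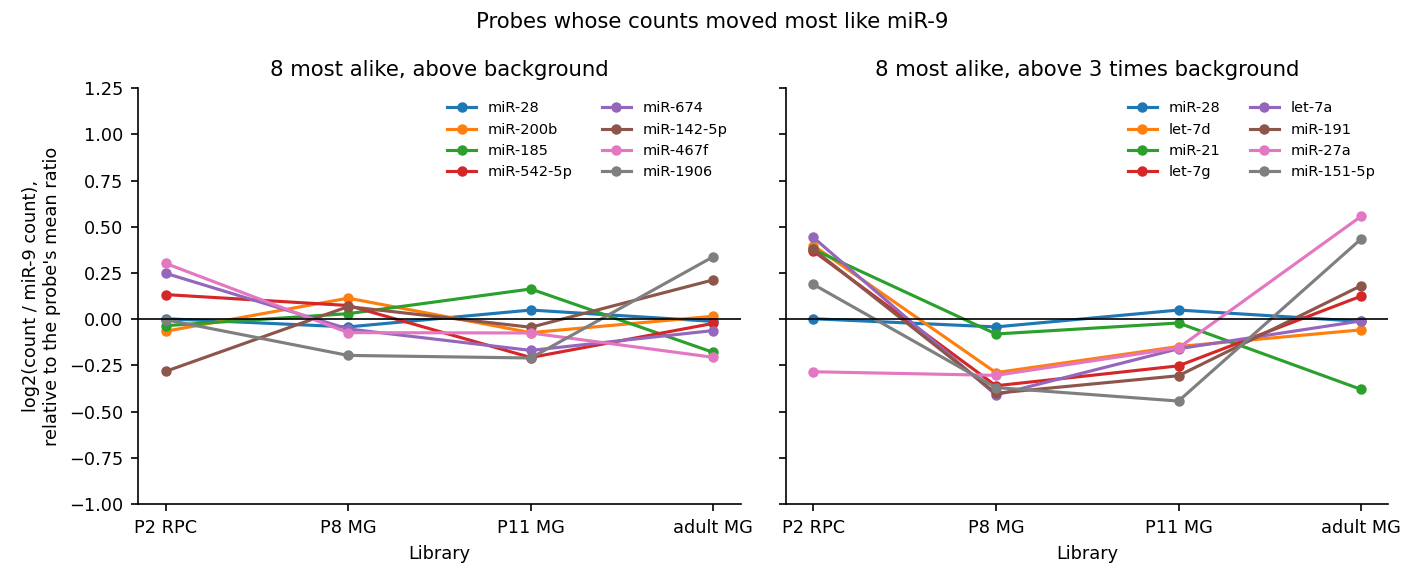
log2 of each probe's count over the miR-9 count of the same lane, relative to the probe's mean ratio, by library, for the 8 closest probes above background (left) and the 8 closest above 3 times background (right). miR-28 was flat in both panels, and let-7d, let-7g and let-7a were highest in P2 RPC and lowest in P8 MG.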

How the data were processed

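miRNAs were counted in 1 nCounter lane for each of 4 pooled samples. Per the labels' protocols, each mature miRNA was ligated to a tag through a bridging oligonucleotide. The raw table, as deposited, gives integer barcode counts (566 mouse miRNA, 33 viral, 4 housekeeping, 8 negative, 6 positive, 6 ligation and 3 spike-in probes). The authors deposited a second table of processed values, treated as a score, with steps not given in the sources used here, as are software and genome build. Those values were used only as an alternative.

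From the raw counts, the lane factors used here came to 0.904 (P2 RPC), 0.925 (P8), 1.08 (P11) and 1.15 (adult). Detection thresholds were 60.7, 137, 106 and 71.7 raw counts. Counts below them were set to the threshold before ratios, so a ratio against background is a bound. Intervals of counts are exact Poisson, of shares exact Clopper-Pearson and of ratios exact conditional binomial, all at 95%. With 1 library per group no test was possible. Tools were Python 3.11.15, scipy 1.17.1, pandas 2.3.3 and edgeR 4.0.16 (TMM factors only). The call rule was tried on simulated counts that held counting error only. Scatter, scaling and background differences between lanes were not simulated, so their effect on the calls was not tested.

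The miRNA examined, the lists, the partner miRNAs and the naming rule were chosen with earlier results of these data known. The rule named miR-9, its rank neighbours, the 8 probes most like it, 7 partners and list members. miRNA names were matched to RefSeq through arm names, since the panel gives older ones.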

Additional observations from a re-analysis of the deposited data

How the results depend on the processing

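Depth did not limit miR-9, whose counting intervals span under 2% of its value. The choice of scaling moved it more, and only 1 library per group was measured. No paired analysis was possible because each group had 1 library. The log2 ratios of miR-9 are given in the order P8 MG over P2 RPC, P11 MG over P8 MG, adult MG over P11 MG, adult MG over P2 RPC, P11 MG over P2 RPC and adult MG over P8 MG, as reported 0.69, 0.06, -0.37, 0.38, 0.75 and -0.31. They were 0.88, 0.11, -0.35, 0.64, 0.99 and -0.24 on the top 50 probes, 0.69, -0.21, -0.98, -0.50, 0.48 and -1.19 on total miRNA counts, and 0.48, -0.14, -0.12, 0.22, 0.34 and -0.26 on positive controls alone. The geometric mean of the housekeeping mRNAs gave -0.34, 0.19, 0.094, -0.052, -0.15 and 0.29, and their sum 0.21, 0.19, -0.013, 0.39, 0.40 and 0.18. The ligation controls gave 0.91, -0.21, 0.12, 0.81, 0.70 and -0.094, TMM factors 0.14, 0.16, -0.19, 0.11, 0.30 and -0.027, and median-of-ratios factors 0.64, 0.025, -0.19, 0.47, 0.67 and -0.17. Leaving miR-9 and miR-204 out of the top 100 gave 0.70, 0.07, -0.36, 0.40, 0.76 and -0.29. The authors' deposited processed values gave 0.24, 0.19, -0.019, 0.41, 0.43 and 0.17. Subtracting the negative-control mean left every ratio within its counting interval. The cause of the reversals was not tested. The miR-9 share in P2 RPC and at P8, P11 and the adult stage was 13.7%, 22.9%, 19.3% and 9.63% after subtracting the negative-control mean and 14.0%, 23.8%, 20.0% and 9.77% in the authors' deposited processed values. It was 14.0%, 24.3%, 23.2% and 14.6% without miR-204, and 14.2%, 25.7%, 25.2% and 18.5% without miR-204 and miR-125b-5p, a setting added after seeing the data. The ranks 1, 1, 2 and 3 were the same in the authors' deposited values. Of the 8 probes most like miR-9, 1 remained when candidates had to exceed 3 times background, which leaves 50 candidates in place of 116, and 6 remained after background subtraction. The number of probes past 2-fold ranged over scalings from 50 to 92 for P8 MG over P2 RPC (50 as reported) and from 57 to 89 for adult MG over P8 MG (58 as reported). Thresholds of 1.5-fold and 3-fold called 35.8% and 10.0% of probes in P8 MG over P2 RPC and 56.6% and 22.7% in adult MG over P2 RPC. As reported, miR-9 passed 1.5-fold in P8 MG and P11 MG over P2 RPC. Neither comparison passed it on positive controls alone, either housekeeping scaling, TMM factors or the authors' deposited values. On total miRNA counts P8 MG over P2 RPC passed it and P11 MG over P2 RPC did not.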
